A study of Mus musculus with 6 samples.

Results

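The family of miR-15a, miR-15b, miR-16, miR-195a and miR-497a was followed in the kidney inner medulla of mice designed to lack Dicer1 in aquaporin-2-expressing cells. Its members were taken by name, 1 entry per listed arm. All 7 listed mature RNAs had an entry among the 1081 in the table. The 5p arms of the 5 miRNAs are called the guides here, the name for strands that are usually loaded into the silencing complex. That name was given by arm and not by reads. The other 2 entries are the 3p arms of miR-15b and miR-195a. Small RNA was sequenced in 3 libraries from DicerAQP2Cre+ mice and 3 from control mice, with all mice 1 month old. In DicerAQP2Cre+ mice the deletion is meant to follow Cre expressed with aquaporin-2, a water channel that marks principal cells in the collecting duct. By this design, endothelial, stromal and other tubule cells of the same tissue keep Dicer1. The control mice are described only as controls. The Dicer1 transcript is not among the small RNAs read, which leaves the deletion unchecked here, and the columns named CK were taken to be the DicerAQP2Cre+ mice. RNA came from inner medulla tissue, so a value sums over all its cell types.

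The family is one of the most widely expressed in mammals and is known as a brake on proliferation. Its guides carry the same seed, the bases that pair with target transcripts, and through it repress cyclins D1 and E1, other regulators of the step from G1 to S phase, and the survival gene Bcl2. In humans, deletion of the locus of miR-15a and miR-16 is a hallmark of chronic lymphocytic leukaemia, and in mice miR-195a contributes to the withdrawal of heart muscle cells from the cell cycle after birth. Dicer cuts each of these hairpins into a duplex of a 5p and a 3p arm, of which one is usually discarded.

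The mature sequences show why the 5 guides count as one family and the 3p arms do not. They are RefSeq sequences of the GRCm38.p6 table, written 5′ to 3′, and capitals mark the seed, bases 2 to 8.
mmu-miR-15a-5p: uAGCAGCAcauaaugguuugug
mmu-miR-15b-5p: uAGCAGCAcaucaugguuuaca
mmu-miR-16-5p: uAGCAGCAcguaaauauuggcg
mmu-miR-195a-5p: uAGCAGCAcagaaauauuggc
mmu-miR-497a-5p: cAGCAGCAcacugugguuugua
mmu-miR-15b-3p: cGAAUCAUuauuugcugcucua
mmu-miR-195a-3p: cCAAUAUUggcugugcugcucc

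The guides share the seed AGCAGCA, and the table held 6 entries with it, the sixth being miR-322-5p. Among the guides, miR-16-5p and miR-195a-5p were the closest pair, with 2 mismatches over the 21 positions both have. miR-15a-5p and miR-15b-5p had 4 mismatches over 22 positions and were identical over their first 11 bases. miR-16-5p and miR-497a-5p were the farthest apart, with 11 mismatches over 22 positions. The 3p arms have seeds of their own, GAAUCAU for miR-15b-3p and CAAUAUU for miR-195a-3p.

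These mature RNAs come from 3 clusters of hairpins. In the GRCm38 annotation Mir15a and Mir16-1 lie on chromosome 14 with 54 bases between them, inside Dleu2, a long noncoding RNA gene on the same strand. Mir15b and Mir16-2 lie on chromosome 3 with 66 bases between them, in an intron of Smc4, which encodes a condensin subunit needed for chromosome compaction in mitosis. Mir497 and Mir195a lie on chromosome 11 with 241 bases between them, in no annotated host gene. Mir16-1 and Mir16-2 give the same miR-16-5p sequence, so reads of miR-16-5p cannot be assigned to a cluster.

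A value below is a normalized read count, the reads of a mature RNA divided by the size factor of its library. The mature RNAs are 21 or 22 bases long, so no scaling by length was needed to set them side by side, but adapter ligation favours some sequences and this was not corrected. Recovered reads numbered 2934851 to 7614853 per library in DicerAQP2Cre+ mice and 4924091 to 6780624 in controls. The first principal component held 46.1% of the variance, with scores of 7.84, 12.5 and 2.33 in DicerAQP2Cre+ replicates 1 to 3. The controls ran from -7.90 to -7.10, so replicate 3 was the DicerAQP2Cre+ library nearest to them. On the second principal component, which held 23.1% of the variance, DicerAQP2Cre+ replicate 3 was the extreme library, with a score of -12.5. The fold changes were tested with limma on log2(value + 1) over 461 entries with a mean of at least 5, and p-values were adjusted over all of them by the Benjamini-Hochberg method. Of the 7 members, 6 passed that filter and miR-15b-3p did not.

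The members did not share one direction. The guides miR-15a-5p and miR-16-5p were lower in every DicerAQP2Cre+ library than in any control, whereas miR-15b-5p had a higher mean and the guides of the third cluster, miR-195a-5p and miR-497a-5p, had nearly equal means. No member passed the adjusted threshold of 0.05 in limma, in either direction. Over all tested entries 4.99% were called lower and 3.47% higher. At an unadjusted limma p under 0.05, 3 of the 6 tested members differed, 2 lower and 1 higher, against 28.0% of all tested entries in either direction. edgeR called 0 members, and 4.99% of entries lower and 4.12% higher. DESeq2 called miR-15a-5p lower and no member higher, and 6.72% of entries lower and 6.29% higher. The median log2 fold change of the 6 members that passed the filter was 0.090, against -0.012 for all tested entries, a middle value between members of opposite sign. In bulk tissue such as this, fewer cells of a type and less RNA per cell cannot be told apart.

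**Figure D1:**
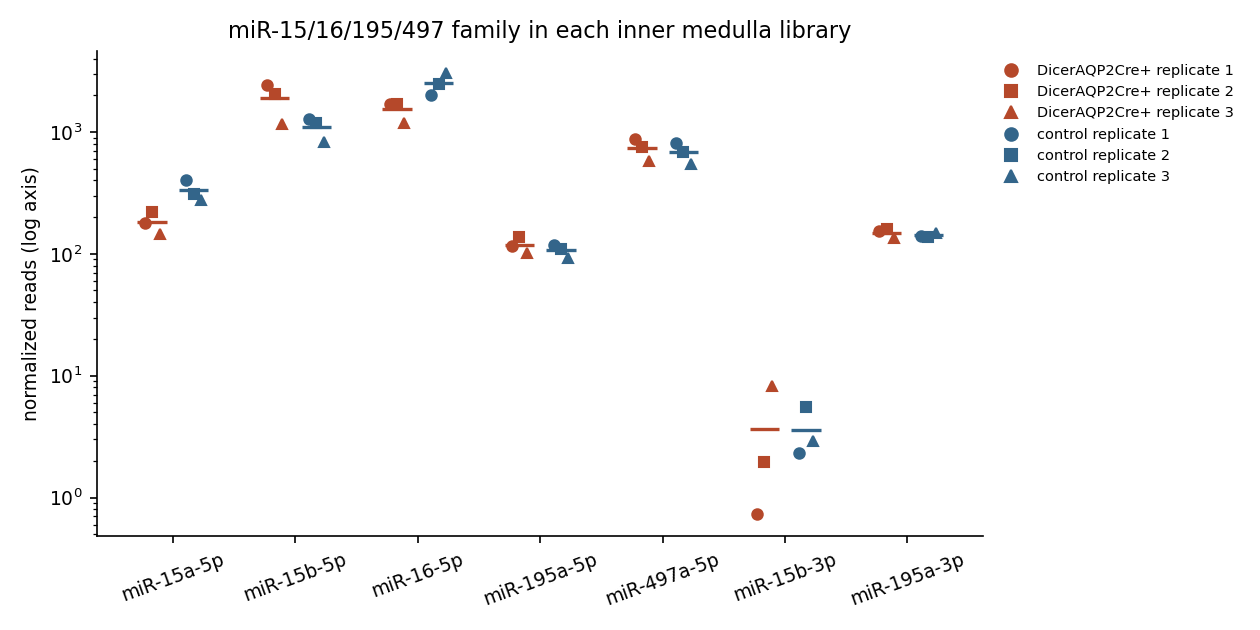
Normalized reads (log axis) of the 7 members in each library, with DicerAQP2Cre+ replicates in red to the left of controls in blue, 1 marker shape per replicate number and a bar at the mean of 3. For miR-15a-5p and miR-16-5p all 3 DicerAQP2Cre+ points lie below all 3 controls, and in the remaining 5 members the genotypes overlap.

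Of the guide made only from the Dleu2 cluster, miR-15a-5p, there were 179, 221 and 146 normalized reads in DicerAQP2Cre+ replicates 1 to 3, against 407, 311 and 278 in control replicates 1 to 3. The highest DicerAQP2Cre+ library was thus below the lowest control. The means were 182 ± 37.8 in DicerAQP2Cre+ mice and 332 ± 67.0 in controls (SD, n = 3 each), which is 1.82-fold lower. The log2 fold change was -0.86 ± 0.26 (SE, 95% interval -1.43 to -0.30), with a limma adjusted p of 0.0641. The call depended on the setting: the limma adjusted p was 0.0216 with libraries set to equal totals, 0.0458 with a mean filter of 50 and 0.0403 without DicerAQP2Cre+ replicate 3, and the DESeq2 adjusted p was 0.0260. In these limma settings 10.4%, 8.88% and 13.6% of entries were called lower.

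miR-16-5p, which is made from both the Dleu2 and the Smc4 cluster and is often used as a reference in miRNA assays of blood, was the most abundant member in controls. It had 1706, 1695 and 1189 normalized reads in the DicerAQP2Cre+ libraries, against 1994, 2479 and 3057 in the controls. The genotypes did not overlap, and DicerAQP2Cre+ replicate 3 was the lowest of all. The means of 1530 ± 295 in DicerAQP2Cre+ mice and 2510 ± 532 in controls (SD, n = 3 each) differed 1.64-fold. The log2 fold change was -0.71 ± 0.24 (95% interval -1.24 to -0.19), with a limma adjusted p of 0.0918, and 0.0388 with equal totals. miR-15a-5p and miR-16-5p were 2 of 6 tested members with no overlap in the lower direction, against 18.0% of all tested entries. In the higher direction there were 0 of 6, against 15.6%.

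miR-15b-5p, the guide made only from the Smc4 cluster, had a higher mean instead. It had 2447, 2050 and 1152 normalized reads in DicerAQP2Cre+ libraries, against 1267, 1174 and 826 in controls. DicerAQP2Cre+ replicates 1 and 2 were above every control, and replicate 3 was within the range of the controls. The mean was 1883 ± 663 in DicerAQP2Cre+ mice and 1089 ± 233 in controls (SD, n = 3 each), 1.73-fold higher. The log2 fold change was 0.74 ± 0.30 (95% interval 0.08 to 1.41), with a limma adjusted p of 0.135. Without DicerAQP2Cre+ replicate 3 it was 1.06, with a limma adjusted p of 0.00279 in a fit that called 9.41% of entries higher.

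The guides of the third cluster had similar values in both genotypes. miR-497a-5p had 872, 754 and 576 normalized reads in DicerAQP2Cre+ libraries and 813, 683 and 542 in controls, means of 734 ± 149 and 679 ± 135 (SD, n = 3 each). miR-195a-5p had 115, 137 and 102 in DicerAQP2Cre+ libraries and 118, 110 and 91.9 in controls, means of 118 ± 17.7 and 106.6 ± 13.2. In both, the genotypes overlapped throughout. The log2 fold changes were 0.11 ± 0.24 for miR-497a-5p (95% interval -0.43 to 0.65, limma adjusted p = 0.796) and 0.15 ± 0.25 for miR-195a-5p (95% interval -0.40 to 0.69, limma adjusted p = 0.743). Neither interval reached as low as the -0.71 of miR-16-5p, but the interval of miR-16-5p itself, -1.24 to -0.19, overlapped both.

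**Figure D2:**
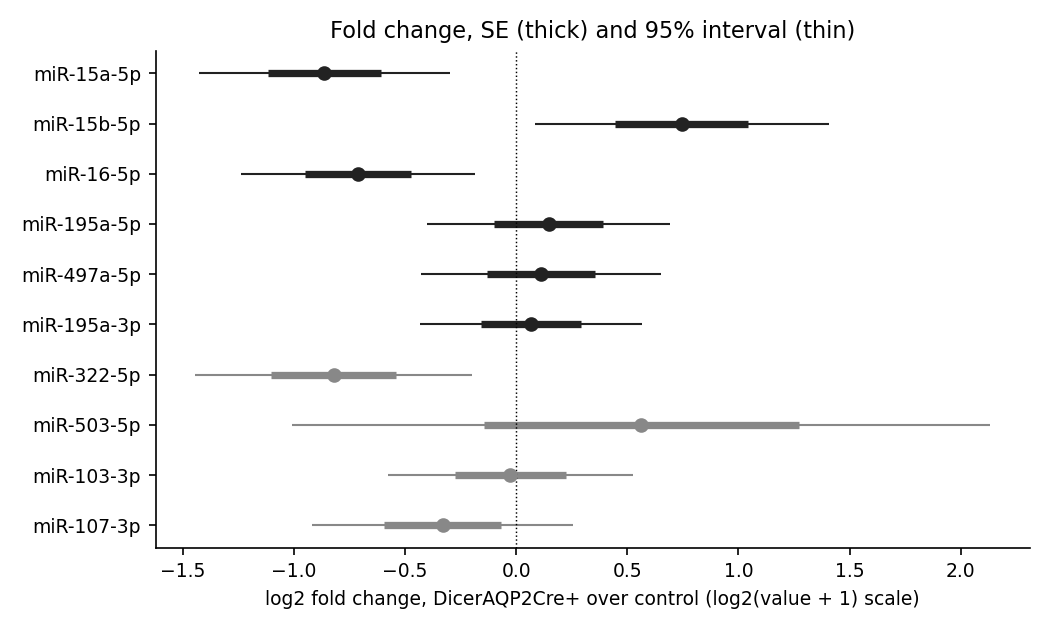
Log2 fold change of DicerAQP2Cre+ over control from limma for the 6 tested members (black) and the 4 entries related by sequence (grey), with the SE as a thick and the 95% interval as a thin bar. The intervals of miR-15a-5p (-1.43 to -0.30), miR-16-5p (-1.24 to -0.19), miR-15b-5p (0.08 to 1.41) and miR-322-5p (-1.44 to -0.20) leave out 0, before any adjustment over entries.

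The 3p arms differed in how much of them was kept. miR-195a-3p was read more often than its 5p partner in all 6 libraries, with 154, 161 and 134 normalized reads in DicerAQP2Cre+ mice and 140, 138 and 149 in controls. It made up 57.1, 53.9 and 56.7% of the reads of its hairpin in DicerAQP2Cre+ libraries and 54.3, 55.6 and 61.8% in controls. For DicerAQP2Cre+ replicate 2, the shallowest library, the 95% exact binomial interval of that share was 45.7 to 62.1%. Its log2 fold change was 0.068 ± 0.23 (95% interval -0.43 to 0.57, limma adjusted p = 0.848). For miR-195a-5p the name guide thus goes by arm and does not mark the arm with more reads. miR-15b-3p was nearly absent, with 1, 1 and 8 reads in DicerAQP2Cre+ libraries and 3, 7 and 3 in controls before normalization. As a share of its hairpin this was 0.0302, 0.0955 and 0.704% in DicerAQP2Cre+ mice and 0.182, 0.466 and 0.350% in controls. With so few reads no difference in this arm could be detected at this depth.

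The other 3p arms of these hairpins, which are not listed members, would tell the 2 sources of miR-16-5p apart, but they were also close to the limit of detection. miR-16-1-3p had 2, 1 and 2 reads in DicerAQP2Cre+ libraries and 7, 1 and 4 in controls, and miR-16-2-3p had 1, 0 and 0 against 2, 1 and 0. A count of 0 allows up to 3 reads, which is 5.88 normalized reads in DicerAQP2Cre+ replicate 2 and 3.07 in replicate 3. miR-15a-3p had 2, 0 and 1 reads against 4, 4 and 2. Which of the hairpins accounted for the lower miR-16-5p could therefore not be read from the discarded arms.

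The order of the members by mean level was not the same in the genotypes. In DicerAQP2Cre+ mice miR-15b-5p had the highest mean, with a range of 1152 to 2447 that overlapped that of miR-16-5p (1189 to 1706). In DicerAQP2Cre+ replicate 3 miR-16-5p stayed above miR-15b-5p, at 1189 against 1152. miR-497a-5p followed without overlap, and then came miR-15a-5p, miR-195a-3p and miR-195a-5p, where each neighbour overlapped the next. In controls miR-16-5p came first, with 1994 to 3057, above the 826 to 1267 of miR-15b-5p, which was in turn just above the 542 to 813 of miR-497a-5p. miR-15a-5p, miR-195a-3p, miR-195a-5p and miR-15b-3p followed in that order with no overlap between neighbours. Among all 1081 entries the mean over all libraries ranked miR-16-5p at 77, miR-15b-5p at 82, miR-497a-5p at 110, miR-15a-5p at 157, miR-195a-3p at 188, miR-195a-5p at 202 and miR-15b-3p at 503.

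The reads of the 5 guides together did not separate the genotypes. Their sum was 5320, 4858 and 3166 normalized reads in DicerAQP2Cre+ libraries and 4598, 4758 and 4794 in controls. DicerAQP2Cre+ replicates 1 and 2 were above every control and replicate 3 was below every control. All 7 members took 0.0972, 0.0873 and 0.0569% of the reads in DicerAQP2Cre+ libraries and 0.0909, 0.1005 and 0.104% in controls. The means of 0.0804 ± 0.0210% in DicerAQP2Cre+ mice and 0.0984 ± 0.00669% in controls (SD, n = 3 each) differed by -0.0179 percentage points, for which the two-sided exact permutation test gave p = 0.2, or 0.4 after adjustment over 6 such tests. Without DicerAQP2Cre+ replicate 3 the difference was -0.00615 percentage points. The smallest p that 3 against 3 libraries allow is 0.1. miR-181a-5p alone took 63.9, 66.8 and 58.2% of the reads in DicerAQP2Cre+ libraries and 52.8, 47.8 and 43.3% in controls, and with it left out of the total the difference in the family's share was 0.0333 percentage points, of the opposite sign (exact p = 0.4).

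The make-up of this pool separated the genotypes, a comparison chosen after the values were seen and given without a test. miR-15b-5p made up 46.0, 42.2 and 36.4% of the guide reads in DicerAQP2Cre+ libraries, against 27.6, 24.7 and 17.2% in controls. miR-16-5p made up 32.1, 34.9 and 37.6% in DicerAQP2Cre+ libraries, against 43.4, 52.1 and 63.8% in controls. Neither share overlapped between the genotypes. miR-15a-5p was at 3.37, 4.56 and 4.61% against 8.85, 6.54 and 5.79%, again with no overlap. Shares of the pool are tied, because a larger share of miR-15b-5p leaves less for the other guides. These separations are therefore not independent of each other. By level, which is another measure, 18.0% of all tested entries did not overlap in the lower direction and 15.6% in the higher. How often shares of a pool or ratios between entries do not overlap was not computed. The shares of miR-497a-5p, at 15.5 to 18.2% in DicerAQP2Cre+ libraries and 11.3 to 17.7% in controls, and of miR-195a-5p, at 2.17 to 3.23% and 1.92 to 2.56%, overlapped.

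**Figure D3:**
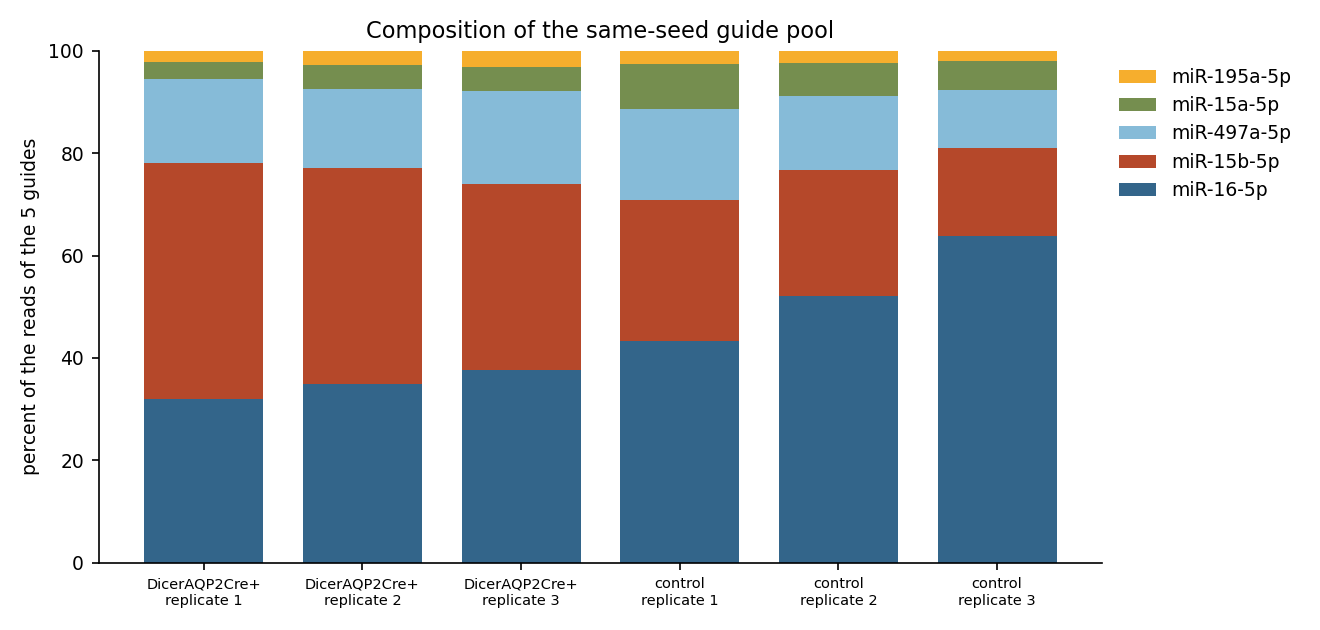
Percent of the reads of the 5 same-seed guides that each guide took, stacked to 100 in each library, with DicerAQP2Cre+ libraries to the left of controls. miR-15b-5p (red) took 36.4 to 46.0% in DicerAQP2Cre+ libraries against 17.2 to 27.6% in controls, and miR-16-5p (dark blue) 32.1 to 37.6% against 43.4 to 63.8%.

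Ratios of members within a library do not depend on how libraries are scaled. They are built from the same values as the levels above, so a separation in a ratio is not independent of one in a level. There were 13.7, 9.26 and 7.89 reads of miR-15b-5p for each read of miR-15a-5p in DicerAQP2Cre+ libraries, against 3.11, 3.77 and 2.97 in controls. Every DicerAQP2Cre+ library, replicate 3 included, was above every control. The log2 ratio was 3.32 ± 0.41 in DicerAQP2Cre+ mice and 1.71 ± 0.18 in controls (SD, n = 3 each), a difference of 1.61, and the two-sided exact permutation test gave p = 0.1, the lowest it can reach here, or 0.3 after adjustment. These guides come from the Smc4 and the Dleu2 cluster.

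The ratio of miR-15b-5p to miR-16-5p, chosen after its values were seen and not tested, was 1.43, 1.21 and 0.969 in DicerAQP2Cre+ libraries and 0.635, 0.474 and 0.270 in controls. The hairpins Mir15b and Mir16-2 are neighbours in the same intron, so this is a contrast between a guide made there and one made there and at the Dleu2 cluster. The ratio of miR-16-5p to miR-15a-5p overlapped, at 9.53, 7.65 and 8.14 in DicerAQP2Cre+ libraries and 4.90, 7.96 and 11.01 in controls. It varied more among the controls than between the means, which were 8.44 in DicerAQP2Cre+ mice and 7.96 in controls.

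Between the third cluster and miR-16-5p, the ratio of miR-195a-5p to miR-16-5p was 0.0677, 0.0809 and 0.0859 in DicerAQP2Cre+ libraries and 0.0590, 0.0444 and 0.0301 in controls. The genotypes did not overlap, and the log2 ratio of -3.68 ± 0.18 in DicerAQP2Cre+ mice and -4.54 ± 0.49 in controls (SD, n = 3 each) differed by 0.86 (exact two-sided permutation p = 0.1, adjusted 0.3). These are the guides that differ at the fewest positions, and how reads with sequencing errors were assigned between them was not tested. Within the third cluster, miR-497a-5p gave 7.56, 5.50 and 5.64 reads for each read of miR-195a-5p in DicerAQP2Cre+ libraries and 6.91, 6.21 and 5.89 in controls. The log2 ratios of this pair differed by -0.036 (exact p = 0.8, adjusted 0.8). The log2 ratio of the miR-195a arms, 5p over 3p, differed by 0.079 (exact p = 0.8, adjusted 0.8), and that of the miR-15b arms by 1.29 (exact p = 0.5, adjusted 0.75), the last resting on 1 to 8 reads of the 3p arm. It was 0.26 without DicerAQP2Cre+ replicate 1 and 2.53 without DicerAQP2Cre+ replicate 3.

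**Figure D4:**
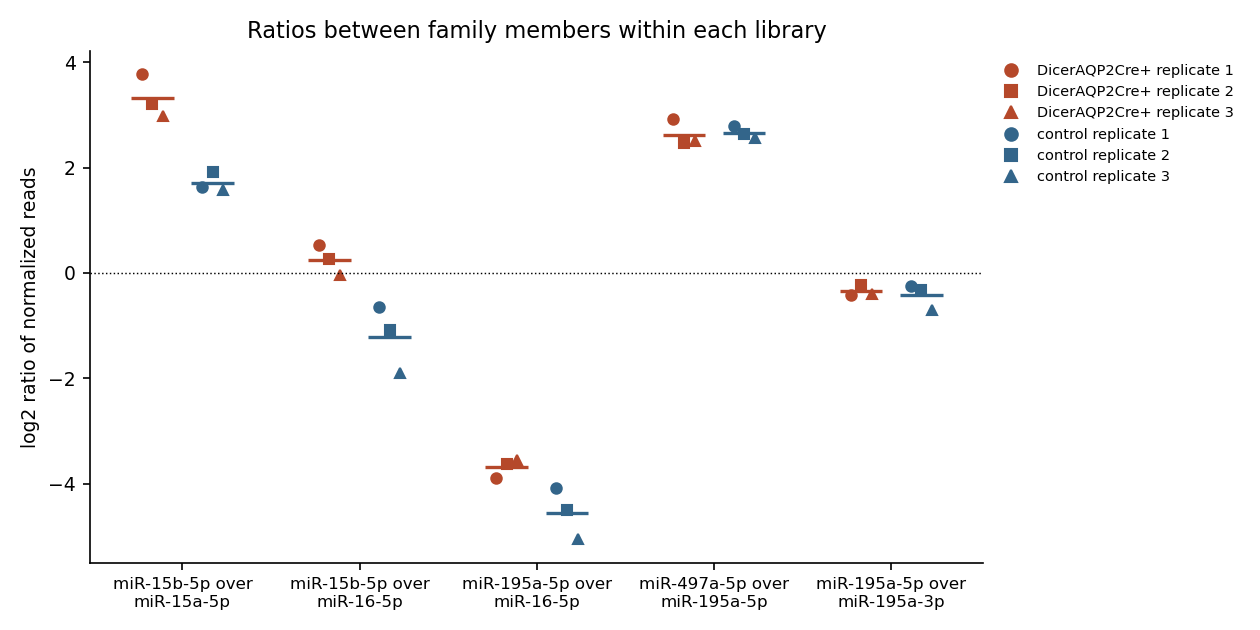
Log2 ratio of normalized reads between pairs of members within each library, DicerAQP2Cre+ in red to the left of control in blue, with a bar at the mean of 3. The 2 ratios over miR-16-5p and the ratio of miR-15b-5p to miR-15a-5p (mean 3.32 against 1.71) do not overlap between genotypes, whereas miR-497a-5p over miR-195a-5p and the arms of miR-195a do.

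Beyond the listed members, 4 entries are related to the family through the letters AGCAGC starting at base 1 or base 2. They are shown from RefSeq (GRCm38.p6) with those letters in capitals, to set the start of miR-103-3p and miR-107-3p beside the others.
mmu-miR-322-5p: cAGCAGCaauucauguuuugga
mmu-miR-503-5p: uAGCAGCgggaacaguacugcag
mmu-miR-103-3p: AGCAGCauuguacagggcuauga
mmu-miR-107-3p: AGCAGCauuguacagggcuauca

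miR-322-5p, from an X-linked cluster, has the full family seed. It had 120, 110 and 69.5 normalized reads in DicerAQP2Cre+ libraries and 180, 142 and 199 in controls, with no overlap. Its log2 fold change of -0.82 ± 0.28 (limma adjusted p = 0.0973) was close to those of miR-15a-5p and miR-16-5p and did not pass, whereas with equal totals it was -1.03 with a limma adjusted p of 0.0389. miR-503-5p, its neighbour, had 2 to 21 reads per library in DicerAQP2Cre+ mice and 3 to 12 in controls (log2 fold change 0.56 ± 0.71, and 0.098 to 1.41 with 1 library left out). miR-103-3p and miR-107-3p, from introns of pantothenate kinase genes, had log2 fold changes of -0.027 ± 0.25 and -0.33 ± 0.26 with overlapping genotypes. Without DicerAQP2Cre+ replicate 3, miR-107-3p was at -0.62 with a limma adjusted p of 0.0269. The sign for miR-103-3p turned with the scaling, at 0.25 when totals were equalised without miR-181a-5p.

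For each tested member the non-member entries with the most similar profile were found among 253 entries with a mean of at least 50, by the root mean square difference of centred log2 values over the 6 libraries. Entries chosen in this way follow the member's profile by construction, so their values are no separate result. For miR-15a-5p they were miR-29c-5p (0.138) and miR-200a-3p (0.166). miR-29c-5p had 59.9, 88.2 and 41.9 normalized reads in DicerAQP2Cre+ libraries and 135, 99.0 and 89.0 in controls (log2 fold change -0.80, limma adjusted p = 0.136). miR-200a-3p, an epithelial miRNA, had 766, 974 and 849 normalized reads in DicerAQP2Cre+ libraries and 1887, 1636 and 1526 in controls (log2 fold change -0.96, limma adjusted p = 0.0164). For miR-16-5p they were miR-425-5p (0.143) and miR-151-3p (0.202). For miR-15b-5p they were the joined entry of miR-199a-3p and miR-199b-3p (0.190), known from stromal cells, and miR-615-3p (0.190). That joined entry had 3658, 3514 and 2207 normalized reads in DicerAQP2Cre+ libraries and 1995, 1826 and 1794 in controls (log2 fold change 0.71, limma adjusted p = 0.0915). miR-615-3p had 2039, 1395 and 1061 in DicerAQP2Cre+ libraries and 1254, 1002 and 832 in controls (log2 fold change 0.51, limma adjusted p = 0.251).

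For the guides of the third cluster the nearest entries were miR-425-3p (0.107) and miR-24-3p (0.111) for miR-497a-5p, and miR-196a-5p (0.134) and miR-24-3p (0.135) for miR-195a-5p. For miR-195a-3p they were miR-196a-5p (0.0783) and miR-532-5p (0.0828). Within the family, the third cluster's members had the most similar profiles, at 0.154 between the arms of miR-195a and 0.163 between miR-195a-5p and miR-497a-5p. The distance was 0.360 between miR-15a-5p and miR-16-5p, and largest between miR-15b-5p and miR-15a-5p, at 0.845, followed by miR-15b-5p and miR-16-5p, at 0.829.

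Some markers of cell types in the tissue also differed. All 5 of 5 epithelial markers, the 3p arms of the miR-200 family, were called lower in limma, and their summed level was 7133 to 10780 normalized reads in DicerAQP2Cre+ libraries and 16700 to 17710 in controls. Of 5 tested stromal markers 2 were called higher, miR-145a-5p and miR-214-3p. Over all tested entries, 4.99% were called lower and 3.47% higher. The stromal list's summed level was 25420 to 36440 in DicerAQP2Cre+ libraries and 21300 to 22720 in controls. The listed miR-199a-3p had no entry under that name alone, and its joined entry was not counted. The 2 endothelial markers, miR-126a-3p and miR-126a-5p, summed to 830 to 1245 in DicerAQP2Cre+ libraries and 961 to 1229 in controls, and 0 were called. Calls over the whole table depended on single controls. Without control replicate 2 or without control replicate 3 limma called 0 of 463 and 0 of 459 entries, with 83 and 92 at an unadjusted p under 0.05, whereas without control replicate 1 it called 11 of 460 lower and 8 higher. The part of these shifts in the values of miR-15a-5p, miR-15b-5p and miR-16-5p was not tested.

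Blood is rich in miR-16. The erythroid markers summed to 13.7 to 26.6 normalized reads in DicerAQP2Cre+ libraries and 18.1 to 33.9 in controls. Most of this in every library was miR-451a, with 25.9, 11.8 and 18.4 in DicerAQP2Cre+ libraries and 23.8, 16.5 and 31.0 in controls (log2 fold change -0.35, limma adjusted p = 0.605). It was the only erythroid marker tested, since miR-486a-5p had no entry and the arms of miR-144 were below the filter. None of the tested entries of this list or of the leukocyte list was called. The tested leukocyte entries, miR-142a-5p, miR-223-3p and miR-150-5p, had log2 fold changes of 0.28, 1.17 and 0.34. Of the leukocyte markers, miR-142a-3p had 1 read in DicerAQP2Cre+ replicate 1 and 0 in the other 5 libraries. The sum of that list, 15920 to 38100 in DicerAQP2Cre+ libraries and 12170 to 35210 in controls, was nearly all miR-150-5p.

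Other miRNAs described as holding back the step from G1 to S phase, the let-7 family, miR-26 and miR-34, were compared as a list of 14, of which 13 passed the filter. 1 of the 13 was called lower and 0 higher in limma, against 4.99% lower and 3.47% higher of all tested entries. Their median log2 fold change was 0.16, against -0.012 for all tested entries. The member called was miR-26a-5p, with 96300, 83780 and 89550 normalized reads in DicerAQP2Cre+ libraries and 135600, 153400 and 141700 in controls (log2 fold change -0.68, limma adjusted p = 0.0272). miR-34c-5p had the largest positive value, 0.75, and did not pass (limma adjusted p = 0.0565). As in the miR-15 family, the signs within this list were mixed.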

How the data were processed

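The deposited signal values are read counts of mature miRNAs scaled by a size factor for each library, as the values themselves show. Per the submitters' processing notes, FastQC 0.11.3 and DESeq2 were used with build mm9. For the aligner, the counter and the miRNA release, the sources used here give no name. Dividing each column by its smallest value above 0 gave whole reads for 100% of values (tolerance 0.01 read), and size factors recomputed from those reads matched the deposited ones. Columns CK01 to CK03 were read as conditional knockouts, that is DicerAQP2Cre+ replicates 1 to 3; every direction rests on this inference from the names. No table of the Dicer1 transcript was used, so the deletion was not checked per library.

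limma 3.58.1 (R 4.3.3) with a mean-variance trend was fitted to log2(value + 1) of the 461 entries with a mean of at least 5, two-sided, without a replicate block; this scale understates changes of low entries. edgeR 4.0.16 and DESeq2 1.42.0 were run on the recovered reads. The limma, edgeR and DESeq2 steps were tested on simulated data. For shares and ratios the exact permutation test over libraries was used, two-sided (SciPy 1.17.1), with adjustment over 6 tests. Binomial intervals and floors of 3 reads cover counting error only, since PCR copies are not independent molecules. The labels number 3 replicates per genotype, and each library was taken to be a different mouse. The p-values rest on the spread among these libraries, and limma also draws on the variance of all tested entries.

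The members, marker lists and tests were chosen with earlier results of these data known. The rule for named entries took the members, the other arms of their hairpins, entries with AGCAGC at base 1 or 2, and the 2 nearest profiles per tested member. Mature sequences were matched by name for 916 of 1081 entries, so an entry related by sequence but without a match was not analysed here. Because the RefSeq and GENCODE tables are of GRCm38, no coordinates are printed and they were used for sequences, hosts and neighbours.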

Additional observations from a re-analysis of the deposited data

How the results depend on the processing

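The main fit called 0 members lower and 0 higher, with 4.99% and 3.47% of all tested entries. DESeq2 called 1 member lower, with 6.72% of all entries. A mean filter of 50 gave 1 lower, with 8.88% of entries, and equal totals gave 2 lower, with 10.4% of entries. Leaving out 1 library gave 0 to 1 lower and 0 to 1 higher, the calls coming without DicerAQP2Cre+ replicate 3 (miR-15a-5p lower, miR-15b-5p higher). That fit called 13.6% of all entries lower and 9.41% higher. miR-15a-5p, miR-15b-5p and miR-16-5p kept their sign in all 17 other settings, with log2 fold changes of -1.08 to -0.58, 0.52 to 1.06 and -0.92 to -0.43 and adjusted p of 0.0216 to 0.238, 0.00279 to 0.381 and 0.0388 to 0.325. Scaling to equal totals put the median over all entries at -0.21 (log2), and equal totals without miR-181a-5p moved it to 0.25. Relative to that median, miR-15a-5p stood at -0.87 and -0.84, miR-16-5p at -0.72 and -0.68, and miR-15b-5p at 0.74 and 0.77. With equal totals the values of miR-195a-5p, miR-195a-3p and miR-497a-5p had the opposite sign, -0.064, -0.14 and -0.10, but stood 0.14, 0.066 and 0.11 above the median. The sign of miR-103-3p reversed at 0.062 in DESeq2, 0.076 in edgeR, 0.25 with equal totals without miR-181a-5p and 0.034 with libraries thinned to the shallowest, a setting chosen after seeing the data; the cause was not tested. With 1 library left out, values ran from -0.042 to 0.28 for miR-497a-5p, -0.30 to 0.16 for miR-103-3p, -0.058 to 0.17 for the log2 ratio of the miR-195a arms, -0.18 to 0.046 for that of miR-497a-5p to miR-195a-5p, 1.39 to 1.78 for miR-15b-5p to miR-15a-5p and 0.60 to 1.09 for miR-195a-5p to miR-16-5p. The same range was 0.26 to 2.53 for the log2 ratio of the miR-15b arms and -0.0263 to -0.00615 percentage points for the family's share of reads. That share reversed to 0.0333 with miR-181a-5p out of the total and was -0.0049 when normalized reads were set against the mean total.

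Same-numbered libraries deviated from their group means with correlations of -0.0589, 0.00541 and 0.0551, and not every library correlated best with its own number, so the numbers were not taken as pairs. With a replicate block limma called 18 entries lower and 14 higher, against 23 and 16, and 0 members in either direction. The shallowest library limits the entries under 5.88 normalized reads, which touches miR-15b-3p and the other 3p arms of the miR-15a and miR-16 hairpins.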
